A study of Homo sapiens with 6 samples.

Results

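The histone genes, the genes of histone variants and 3 regulators of histone messages were followed in Huh7 cells after silencing of SETD5, a chromatin protein with a SET domain. Members were chosen by symbol: every row starting with HIST and a digit, or with H2AF, H3F3, H1F or H2BF, and the factors SLBP, NPAT and CASP8AP2. This gave 52 of the 14200 genes in the table. They were 37 replication-dependent histone genes, the histone pseudogene HIST2H2BC, 10 variant genes, the antisense RNA H1FX-AS1 and the 3 factors. No H2BF gene and no H3F3A was among the rows analysed here.

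Huh7 is an established human hepatocellular carcinoma line. The control group held 3 libraries of Huh7 cells labelled as control, and the knockdown group 3 libraries of Huh7 cells labelled SETD5-deficient. Silencing was by transfection of siRNA with RNAiMAX, and the labels do not say what the control cells received or how long after transfection RNA was taken. The knockdown was partial, with SETD5 at 208 ± 5.56 CPM in the controls and 138 ± 2.21 CPM after knockdown (SD, n = 3 each), a limma log2 change of -0.59 with an adjusted p of 1.15e-17. CPM are reads relative to a total of their library, here with a scaling between libraries that is not given. Whether the replicates were separate cultures is not stated, so every p-value reflects only how far these libraries differ among themselves, and that spread may be technical.

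Replication-dependent histone genes supply the core histones H2A, H2B, H3 and H4 and the linker histone H1 that package newly copied DNA. Most lie in clusters, lack introns, and are transcribed mainly in S phase under NPAT. Their messages end in a conserved stem-loop bound by SLBP in place of a poly(A) tail, although a part of the messages of some genes is polyadenylated, often at a site beyond the stem-loop. Histone variants are encoded by separate genes that mostly give ordinary polyadenylated messages and are used outside replication. The libraries were made from RNA captured on poly-T beads. The values of the replication-dependent genes therefore cover the polyadenylated part of their messages, and a change in that part cannot be told apart from a change in all of their RNA. In RNA from many cells together, fewer cells expressing a gene and less RNA per cell cannot be told apart either.

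The stem-loop is shown first because it is the feature that sets these messages apart from other mRNAs. Whole GENCODE 29 transcripts were searched for 6 bases starting with GG, a loop of 4 bases starting with TT, and 6 bases pairing with the first. A match was found in 19 of 37 replication-dependent genes, in 1 of 10 variants (H2AFX) and in 72 of 12200 tested genes, 0.590%. The search did not ask whether a match lay after the stop codon. The forms found are printed with the loop in capitals. The first belonged to 13 genes, among them HIST2H2BE and HIST1H2AC. The next belonged to HIST1H2BC, HIST1H2BD and HIST1H2BF, the third to HIST1H4H, HIST1H4E and HIST4H4, and the last to the variant H2AFX.
form in 13 genes: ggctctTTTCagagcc
form in HIST1H2BC: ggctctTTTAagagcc
form in HIST1H4H: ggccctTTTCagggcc
form in H2AFX: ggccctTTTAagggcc
In 15 of the 19 genes the annotated transcript ran on for more than 100 bases after the stem-loop, for example 1729 bases in HIST2H2BE, 1114 in HIST1H2AC and 630 in HIST1H4H, and in H2AFX it ran on for 1044 bases. The annotated models of several genes, HIST1H2BK among them, hold no or little sequence after the stop codon, so a missing match says nothing about the message.

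Many H2A and H2B genes stand head to head and share 1 short upstream region. Of the 52 members, 47 matched a RefSeq promoter window (250 bases before to 50 after the start), and 9 pairs of members had overlapping windows on opposite strands, with 193 to 247 bases between the starts. A pair whose genes differed and a pair whose genes rose together are printed, from GRCh38.p14 on the plus strand, as the sequence between the start of the gene read leftward and the start of the gene read rightward. HIST2H2BE and HIST2H2AC share chr1:149886683-149886917, and HIST1H2BG and HIST1H2AE share chr6:26216689-26216920. Capitals mark the octamer ATTTGCAT, known from H2B promoters as a site of OCT1, the TATA word TATAAA and the CCAAT word, each on either strand.
HIST2H2BE and HIST2H2AC: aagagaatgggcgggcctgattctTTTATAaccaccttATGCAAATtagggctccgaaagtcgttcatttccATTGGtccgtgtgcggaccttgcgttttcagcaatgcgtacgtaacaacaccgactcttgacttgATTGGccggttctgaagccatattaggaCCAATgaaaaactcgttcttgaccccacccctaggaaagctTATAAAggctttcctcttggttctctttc
HIST1H2BG and HIST1H2AE: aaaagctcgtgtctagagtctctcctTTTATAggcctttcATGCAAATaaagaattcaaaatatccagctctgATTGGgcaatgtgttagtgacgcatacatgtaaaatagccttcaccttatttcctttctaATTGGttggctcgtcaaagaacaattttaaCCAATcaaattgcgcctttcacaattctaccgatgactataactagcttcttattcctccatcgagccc

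Replication-dependent histone genes were mostly higher after SETD5 knockdown. Of 37 genes, 24 reached the mean of 1 CPM over the 6 libraries that was set for testing. In limma's test on log2(CPM + 1), with Benjamini-Hochberg adjustment across the 12865 genes tested, 17 of the 24 rose, none fell and 7 did not pass at an adjusted p under 0.05. Over all tested genes, 25.7% rose and 26.5% fell, 52.1% in all, so a change as such was common in these cells. limma-voom on whole reads recovered from the values, added after the data had been seen, also called 17 higher and 0 lower. At an unadjusted p under 0.05 too, neither limma nor voom found one of these 24 lower. The median log2 change of the 24 genes was 0.67, with a range of -0.23 to 0.98, beside a median of -0.0012 over all tested genes. Changes on this scale understate those of genes at low levels, so ratios of CPM are given too. The ratio of the knockdown to the control mean was above 1 in 35 of all 37 genes, with a median of 1.62, and lay between 1.52 and 2.29 in the 17 that rose.

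**Figure D1:**
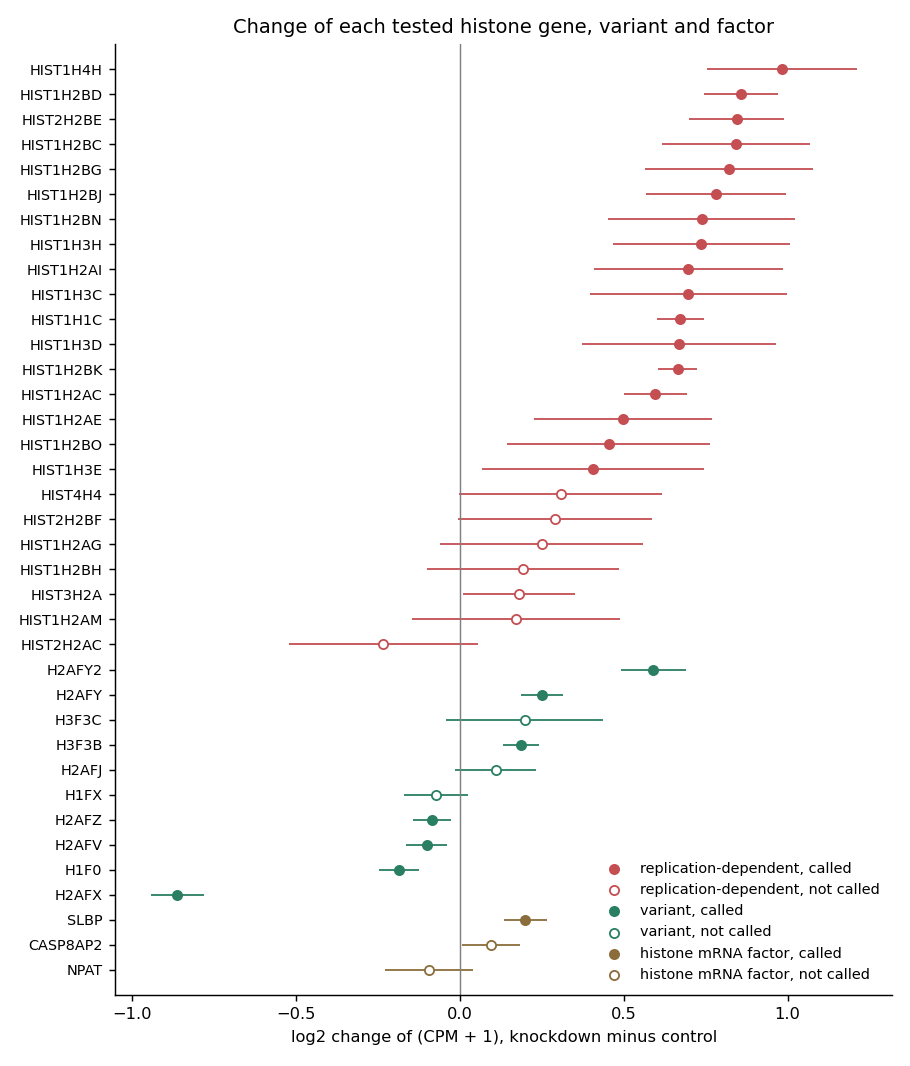
Log2 change of (CPM + 1), knockdown minus control, for each tested histone gene, variant and factor, with the 95% confidence interval of the limma fit (n = 3 libraries per group). Replication-dependent genes run from -0.23 to 0.98, and the variants spread to both sides of 0.

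HIST1H1C was the only linker histone of the replication-dependent class that could be tested. It encodes an H1 subtype that binds DNA between nucleosomes and that many cell types also express outside S phase. Its level was 109, 107 and 107 CPM in the controls, in the order of their numbers, and 164, 176 and 178 CPM after knockdown. Every knockdown library was above every control library. The log2 change was 0.67 (95% confidence interval 0.60 to 0.74, limma adjusted p = 2.49e-18), a ratio of 1.60. HIST1H1E, the other H1 gene, was under 1 CPM.

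Of the H2B genes, which encode the partner of H2A in the nucleosome, 8 of 10 tested rose, with a median log2 change of 0.76. HIST1H2BK read 204, 198 and 209 CPM in the controls and 317, 323 and 331 CPM after knockdown, without overlap, a log2 change of 0.66 (interval 0.60 to 0.72, limma adjusted p = 4.59e-20). HIST1H2BD read 26.1, 24.2 and 26.9 CPM against 47.0, 45.5 and 50.1 CPM, a log2 change of 0.86 (0.75 to 0.97, limma adjusted p = 1.35e-15). Here too the groups lay well apart, at 1.84 times the control mean. HIST2H2BE, outside the large cluster, read 14.4, 14.2 and 15.1 CPM against 24.0, 27.6 and 29.5 CPM, a log2 change of 0.84 (0.70 to 0.99, limma adjusted p = 2.56e-12). HIST1H2BJ read 9.19, 5.85 and 7.65 CPM against 12.1, 14.7 and 13.9 CPM (log2 change 0.78, limma adjusted p = 9.4e-08). Its controls varied more than those of the genes above, with control 2 the lowest, and the groups still did not overlap.

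HIST1H2BC read 5.68, 4.53 and 7.50 CPM in the controls and 11.9, 10.6 and 11.1 CPM after knockdown (log2 change 0.84, limma adjusted p = 5.77e-08), again with every knockdown library higher. HIST1H2BG, from 30 to 36 reads a library in the controls, read 1.76, 2.51 and 2.14 CPM against 4.31, 4.30 and 4.96 CPM (log2 change 0.82, limma adjusted p = 1.15e-06). HIST1H2BN read 1.52, 1.18 and 1.86 CPM against 2.75, 3.81 and 3.05 CPM (log2 change 0.74, limma adjusted p = 3.53e-05). Both pairs of groups were separate at about a doubling of the mean, with ratios of 2.12 and 2.10. HIST1H2BO read 1.17, 1.18 and 2.29 CPM against 2.69, 2.15 and 2.45 CPM (log2 change 0.45, limma adjusted p = 0.0122). Control 3 lay inside the knockdown range, and this call ended in 4 alternative fits, with adjusted p-values of 0.0812 without control replicate 1, 0.0725 without control replicate 2, 0.0666 without knockdown replicate 1 and 0.0612 with no mean-variance trend. HIST1H2BH (0.19, adjusted p = 0.27) and HIST2H2BF (0.29, adjusted p = 0.0953) did not pass limma, although the 3 knockdown values of HIST2H2BF, 1.38 to 1.94 CPM, lay above its controls, 1.18 to 1.29 CPM. HIST2H2BF did pass limma without knockdown replicate 3 (adjusted p = 0.048) and with no mean-variance trend (0.03).

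Of the H2A genes, 3 of 7 tested rose, and the median log2 change was 0.25. HIST1H2AC, the H2A gene with most reads, read 44.4, 40.2 and 41.1 CPM in the controls and 62.3, 67.1 and 62.2 CPM after knockdown. No control library reached the lowest knockdown library, and the log2 change was 0.60 (interval 0.50 to 0.69, limma adjusted p = 4.91e-13). HIST1H2AI read 1.17, 1.11 and 0.929 CPM against 2.25, 2.15 and 2.69 CPM (log2 change 0.70, limma adjusted p = 9.2e-05). HIST1H2AE read 2.28, 1.74 and 1.79 CPM against 3.00, 3.62 and 2.81 CPM (log2 change 0.50, limma adjusted p = 0.00208). In both genes the groups were separate. HIST3H2A read 10.5, 10.3 and 9.93 CPM against 12.3, 11.9 and 11.1 CPM, separate groups with a ratio of only 1.15 that did not pass (log2 change 0.18, limma adjusted p = 0.0711), although it passed with no mean-variance trend (0.0208). HIST1H2AG (0.25) and HIST1H2AM (0.17) did not pass. HIST2H2AC was the one tested gene of the class with a negative value: it read 2.40, 1.95 and 1.79 CPM against 1.44, 1.47 and 1.85 CPM, with control 3 inside the knockdown range (log2 change -0.23, interval -0.52 to 0.05, limma adjusted p = 0.17).

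All 4 tested H3 genes rose, from 8 to 33 reads a library in the controls. HIST1H3H read 1.35, 1.53 and 1.64 CPM in the controls and 3.00, 3.07 and 3.47 CPM after knockdown (log2 change 0.74, limma adjusted p = 1.53e-05). HIST1H3C read 1.76, 2.30 and 1.00 CPM against 3.19, 3.44 and 3.17 CPM (0.70, limma adjusted p = 0.000153), with the control libraries far less alike than the knockdown libraries. HIST1H3D read 1.23, 0.975 and 1.29 CPM against 2.88, 2.58 and 1.91 CPM (0.67, limma adjusted p = 0.000215). These 3 genes showed no overlap between groups, at ratios of 2.11, 1.94 and 2.11 for HIST1H3H, HIST1H3C and HIST1H3D. HIST1H3E overlapped, at 1.29, 0.557 and 1.57 CPM against 1.88, 1.35 and 2.15 CPM (0.41, limma adjusted p = 0.0402). Its call ended in 5 alternative fits, with adjusted p-values of 0.346 without control replicate 2, 0.117 without knockdown replicate 1, 0.162 without knockdown replicate 3, 0.137 with no mean-variance trend and 0.0638 under quantile normalization.

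Of the H4 genes, which all encode the same protein, HIST1H4H had the highest log2 change of all replication-dependent genes tested. It read 2.99, 2.79 and 3.50 CPM in the controls and 7.38, 6.38 and 7.48 CPM after knockdown, separate groups with a log2 change of 0.98 (interval 0.75 to 1.21, limma adjusted p = 3.44e-09). HIST4H4 read 0.703, 0.836 and 0.857 CPM against 1.31, 1.17 and 1.20 CPM, also separate. At 12 reads in each control library it did not pass (log2 change 0.31, limma adjusted p = 0.0909). It was tested only because its knockdown values lifted its mean over the 1 CPM limit, from a control mean of 0.799 CPM, so its passing with no mean-variance trend (0.00304) carries no weight.

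The remaining 13 replication-dependent genes were under 1 CPM, with 1 to 27 reads a library. They were HIST1H1E, HIST1H2AB, HIST1H2AK, HIST1H2AL, HIST1H2BE, HIST1H2BF, HIST1H2BL, HIST3H2BB, HIST1H3A, HIST1H3B, HIST1H4C, HIST1H4E and HIST1H4K. The pseudogene HIST2H2BC was under 1 CPM too, at 0.527 and 0.571 CPM on average. The limit fell between HIST1H2AL at 0.958 CPM and HIST4H4 at 1.01 CPM. With no filter on level, limma called 4 of the 13 higher and voom 5, and neither called one lower. Over all 14200 genes, limma without the filter called 6854 in either direction, so these counts are not read as a result about the scarce genes. HIST3H2BB came nearest to a fall, from 0.601 to 0.285 CPM on average. Its log2 change without the filter was -0.31 by limma (adjusted p = 0.102) and -1.03 by voom (adjusted p = 0.054). HIST1H4K, for example, read 0.293, 0.348 and 0.214 CPM in the controls and 0.75, 0.736 and 0.538 CPM after knockdown, from 3 to 12 reads a library. Its 3 knockdown libraries were all above the controls, but counts this low fix no ratio. HIST1H4K is also identical in its coding sequence to HIST1H4J.

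Over all 37 genes without regard to the test, 23 had every knockdown library above every control library and none the reverse. Groups did not overlap in 57.3% of all tested genes, in either direction, and 3677 of the 12865 tested genes had every knockdown library higher. The 37 include the 13 genes under 1 CPM, which were not tested. By location, 16 of 19 tested genes of the HIST1 cluster rose, 1 of 3 of HIST2, and neither the single HIST3 nor the single HIST4 gene passed; the difference between clusters was not tested. By level, 8 of 9 genes averaging 5 CPM or more rose (median log2 change 0.78), as did 9 of 15 between 1 and 5 CPM (median 0.45).

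**Figure D2:**
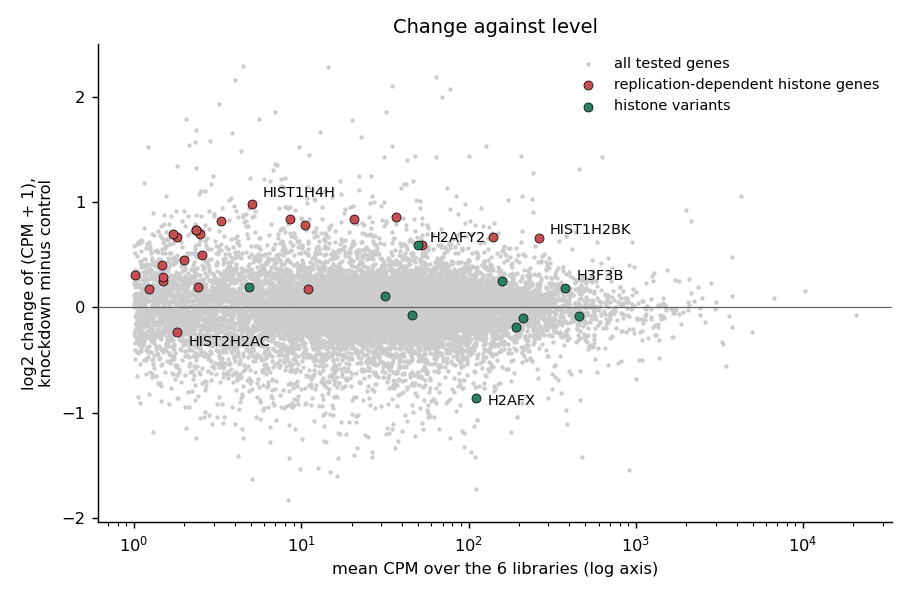
Log2 change of (CPM + 1) against mean CPM over the 6 libraries (log axis) for tested replication-dependent genes and variants. Replication-dependent genes averaging 5 CPM or more have a median change of 0.78 and those between 1 and 5 CPM of 0.45, and the variants lie on both sides of 0.

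Summed over the 37 genes, the replication-dependent class took 455, 435 and 455 CPM in the controls and 703, 729 and 740 CPM after knockdown, 6250 to 7778 and 11241 to 12378 reads. The knockdown sum was thus 1.61 times the control sum. HIST1H2BK and HIST1H1C made up 69.4% of the control sum. Without them the sum went from 137 ± 6.15 to 228 ± 5.42 CPM (SD, n = 3 each), 1.66 times, and the 28 genes under 5 CPM went from 28.2 ± 0.418 to 46.0 ± 0.922 CPM, 1.63 times. The rise of the class sum was therefore of similar size in the abundant and the scarce genes. By histone, the ratio of the sums was 1.60 for H1, 1.44 for H2A, 1.64 for H2B, 1.88 for H3 and 1.97 for H4. In the controls, HIST1H1C held 99.6% of the H1 sum and HIST1H2BK 76.2% of the H2B sum. HIST1H2AC held 41.9 of the 61.0 CPM of H2A, and HIST1H4H 3.09 of the 5.14 CPM of H4. These ratios therefore largely repeat 1 gene each. The 3 knockdown sums of the class lay above all control sums. The H3 sum rested on 98 to 118 control reads a library and the H4 sum on 70 to 86. The sum of the 10 variants was 1661 ± 15.8 CPM in the controls and 1628 ± 19.4 CPM after knockdown, 0.98 times.

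**Figure D3:**
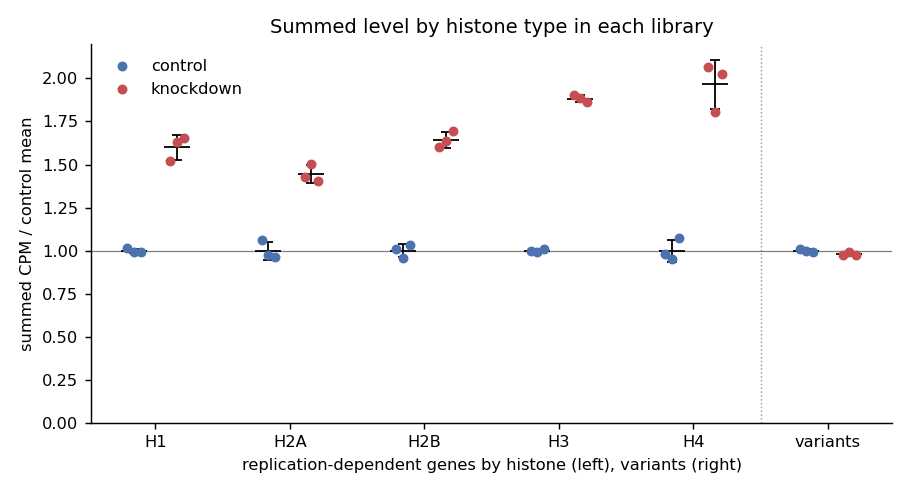
Summed CPM of the replication-dependent genes of each histone, and of the 10 variants, in each library, divided by the control mean of that sum, with the mean and SD of each group as a line and bars. The knockdown libraries sit above the controls for each of the 5 histones, at mean ratios of 1.44 to 1.97, and near 1 for the variants. Single genes hold most of the H1, H2A, H2B and H4 sums.

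The variants were split. All 10 were above 1 CPM, and 3 rose, 4 fell and 3 did not pass limma, beside 25.7% of all tested genes that rose and 26.5% that fell. Their median log2 change was 0.02 and their median ratio 1.01. Among the replication-dependent genes 17 of 24 rose and none fell by limma, with a median of 0.67; the difference between the classes was not tested as such.

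H2AFX encodes the H2A variant that is phosphorylated around DNA breaks, and its gene has features of both classes, with a message made in a stem-loop form and a polyadenylated form. It read 148, 139 and 145 CPM in the controls and 82.3, 81.8 and 72.9 CPM after knockdown. The groups were far apart and no other tested member fell as far, to 0.548 times the control (log2 change -0.86, interval -0.94 to -0.78, limma adjusted p = 1.72e-19). H2AFX was also the one member, of those whose sequence after the stop codon could be searched, that holds the word GCACCT there. Among all 11476 searched genes, the 3135 with the word had a median log2 change of -0.04 and 34.5% of them fell, against 0.01 and 24.5% of those without it. The word was found in earlier work on these data, so these shares are a description only, and the part of the word in the fall of H2AFX was not tested.

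**Figure D4:**
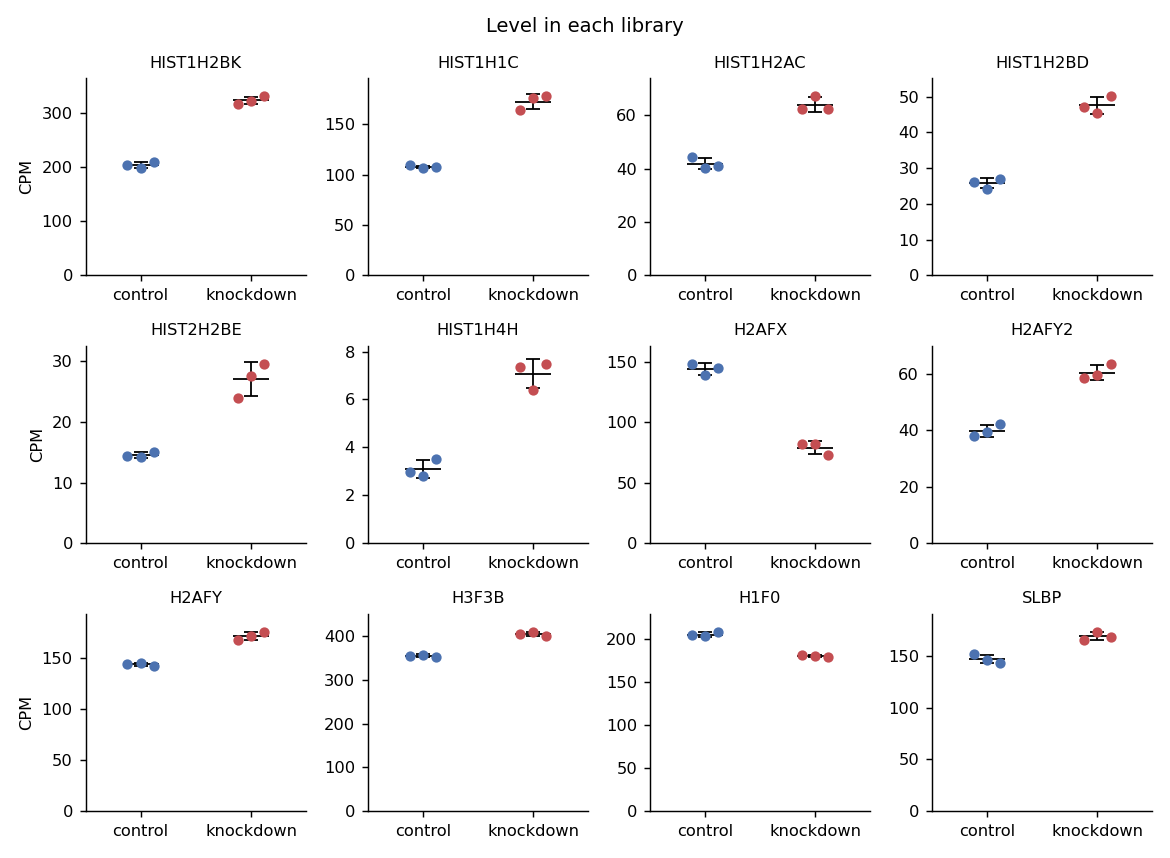
CPM in each library for replication-dependent genes, variants and factors that the text describes, 3 control and 3 knockdown points per panel, with the mean and SD of each group as a line and bars. HIST1H2BK and HIST1H1C are higher in every knockdown library, H2AFX is lower in every one (72.9 to 82.3 against 139 to 148 CPM), and SLBP differs less (144 to 152 against 166 to 174 CPM).

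The macroH2A genes both rose. These variants carry a large extra domain and are known from silent chromatin. H2AFY2 read 37.9, 39.6 and 42.2 CPM in the controls and 58.4, 59.6 and 63.5 CPM after knockdown, separate groups at 1.52 times (log2 change 0.59, interval 0.49 to 0.69, limma adjusted p = 1.05e-12). H2AFY read 144, 145 and 143 CPM against 168, 171 and 176 CPM, also separate but at 1.19 times (log2 change 0.25, limma adjusted p = 2.65e-08). The log ratio of H2AFY2 to H2AFY rose by 0.34, and its control and knockdown values did not overlap. Log ratios of 2 genes, here and below, are differences of their log2(CPM + 1). H3F3B, which encodes the replacement histone of H3 that is laid down outside S phase, rose a little, from 356, 358 and 351 CPM to 404, 410 and 399 CPM (1.14 times, log2 change 0.19, limma adjusted p = 2.96e-07). H3F3C, a retrogene copy, had 60 to 91 reads a library and did not pass (log2 change 0.20, adjusted p = 0.164). The coding sequences of H3F3B and H3F3C are 96.6% identical, so reads may be split between them.

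H2AFZ and H2AFV encode the H2A.Z proteins found at promoters. H2AFZ, the variant with most reads, read 488, 461 and 464 CPM in the controls and 437, 456 and 439 CPM after knockdown. The groups came close without overlapping, and the fall was to 0.943 times (log2 change -0.08, limma adjusted p = 0.0111). H2AFV read 219, 227 and 215 CPM against 204, 211 and 202 CPM, 0.932 times (log2 change -0.10, limma adjusted p = 0.00634). Both calls ended with no mean-variance trend (adjusted p = 0.135 for H2AFZ and 0.0795 for H2AFV), and that of H2AFZ also without control replicate 1 (0.123) or knockdown replicate 1 (0.0649).

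The linker variant H1F0, which builds up in differentiated and resting cells, read 204, 203 and 208 CPM in the controls and 181, 180 and 179 CPM after knockdown. All knockdown libraries were lower, at 0.878 times (log2 change -0.19, interval -0.25 to -0.12, limma adjusted p = 2.64e-06). H1FX, another linker histone, stood at 46.0, 48.6 and 47.6 CPM against 47.3, 43.3 and 44.6 CPM and did not pass (log2 change -0.07, adjusted p = 0.214). The interval of its change, -0.17 to 0.03, holds a small fall. Its antisense RNA H1FX-AS1 read 0.995, 0.766 and 0.643 CPM against 1.94, 0.982 and 1.61 CPM, with overlapping groups (log2 change 0.46, limma adjusted p = 0.0159). It reached the 1 CPM limit only through the knockdown libraries, with group means of 0.802 and 1.51 CPM, so its test supports nothing by itself. That call ended without knockdown replicate 1 (0.132), knockdown replicate 3 (0.0532) or control replicate 3 (0.0633). The use of strand in counting is not given in the sources used here, so reads of H1FX and H1FX-AS1 cannot be told apart with certainty. H2AFJ, an H2A variant, read 33.4, 27.2 and 30.9 CPM against 32.2, 33.4 and 33.0 CPM and did not pass (adjusted p = 0.128), although it passed without control replicate 1 (0.0263).

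The linker histones HIST1H1C and H1F0 thus changed in opposite directions, and their levels came closer together. The log ratio of HIST1H1C to H1F0 rose by 0.86, from -0.95 to -0.89 in the controls to -0.14 to -0.01 after knockdown. An exact two-sided permutation test gave p = 0.1, the smallest that 3 against 3 libraries allow, and 0.233 after Benjamini-Hochberg adjustment over 14 such gene pairs. No pair could pass at this size. The shift of H2AFY2 against H2AFY gave the same p, as did that of H1F0 against H1FX, -0.11 without overlap. H2AFZ against H2AFV shifted by 0.02 and H3F3B against H3F3C by -0.01, with overlapping values in both.

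The divergent pairs gave a comparison of neighbours behind 1 shared region. In 7 of the 9 pairs both genes had a ratio on the same side of 1. Of all 37 replication-dependent genes 35 had a ratio above 1, so this count says nothing particular about shared regions. The other 2 pairs hold the only 2 genes under 1, HIST2H2AC and HIST3H2BB. In 2 of the 5 pairs with both genes tested both rose: HIST1H2BC with HIST1H2AC, and HIST1H2BG with HIST1H2AE. In 8 of the 9 pairs the H2B gene had the higher ratio of mean CPM. On log2(CPM + 1) this order reversed in 2 of the 8 pairs, whose H2B genes averaged under 1 CPM. There HIST1H2BL against HIST1H2AI shifted by -0.34, and HIST1H3D against HIST1H2BF by 0.20. In the pair of HIST2H2BE and HIST2H2AC, printed above, HIST2H2BE rose to 1.86 times while HIST2H2AC stood at 0.776 times without passing. Their log ratio went from 2.18 to 2.53 in the controls to 3.36 to 3.53 after knockdown, without overlap, a shift of 1.08 (exact permutation p = 0.1, adjusted 0.233). HIST1H2BJ against HIST1H2AG shifted by 0.53 and HIST3H2A against HIST3H2BB by 0.49, also without overlap and with the same p. These separations depend on the 1 added to each CPM. As plain ratios of CPM, the control and knockdown values of HIST1H2BJ to HIST1H2AG overlapped, and those of HIST3H2A to HIST3H2BB overlapped narrowly. For HIST1H2BG and HIST1H2AE, with ratios of 2.12 and 1.62, the values overlapped (shift 0.33, exact permutation p = 0.2). Many of these genes have few reads, and HIST3H2BB had 3 to 14 a library. HIST1H3D is paired with HIST1H2BF through an upstream start of HIST1H3D.

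**Figure D5:**
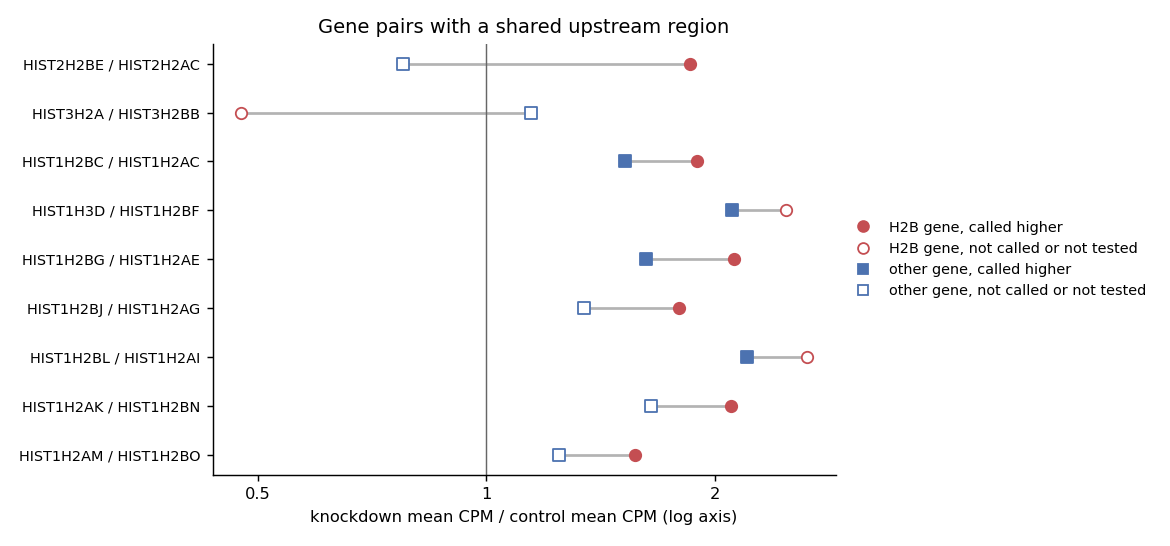
Ratio of knockdown to control mean CPM (log axis) of both genes in each of the 9 pairs that share an upstream region. In 7 pairs both genes lie on the same side of 1, and the pairs HIST2H2BE (1.86) with HIST2H2AC (0.776) and HIST3H2A (1.15) with the scarce HIST3H2BB lie on opposite sides. Of all 37 replication-dependent genes, 35 have a ratio above 1. Filled symbols passed the limma test as higher.

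Words of histone promoters were counted in the RefSeq windows. Members were counted as genes, with a match in any window of the gene, and the background as single windows, so a gene with several windows had more chances. The octamer ATTTGCAT was in 18 of 36 replication-dependent genes, and in 17 of 24 of the H2A and H2B genes (70.8%), against 1.77% of all 35116 windows. TATAAA was in 24 of 36 against 11.5%, and CCAAT, searched on both strands like the others, in 32 of 36 against 34.6%. Of 8 variants with a window, 1 held the octamer, 4 TATAAA and 6 CCAAT. Among the tested H2A and H2B genes, the octamer was in 8 of 11 that rose and in 5 of 6 that did not pass, TATAAA in 10 of 11 and in 3 of 6, and CCAAT in all of both. Windows of divergent pairs overlap, so these counts are not independent. Coding sequences of the replication-dependent genes were a median of 90.2% identical to their closest copy, and that of HIST1H2BK was 98.9% identical to H2BFS. The division of reads between copies is uncertain. Reads divided among the summed genes leave the sums above unchanged. Reads lost to or gained from copies outside them, such as H2BFS, would change the sums as well.

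The 3 factors changed little. SLBP, which binds the stem-loop and is needed for processing, export and translation of histone messages, read 152, 147 and 144 CPM in the controls and 166, 174 and 169 CPM after knockdown. It was higher in every knockdown library, at 1.15 times (log2 change 0.20, interval 0.13 to 0.27, limma adjusted p = 3.27e-06). NPAT, the coactivator of histone gene transcription in S phase, read 23.9, 23.0 and 23.0 CPM against 20.2, 23.8 and 21.5 CPM, with overlap, and did not pass (log2 change -0.10, interval -0.23 to 0.04, adjusted p = 0.235). CASP8AP2, a protein of the histone locus body, read 51.1, 50.3 and 49.7 CPM against 54.6, 53.4 and 53.8 CPM. Its groups did not overlap, and it missed the threshold narrowly (log2 change 0.10, limma adjusted p = 0.0659), passing under median centring (0.0415) and quantile normalization (0.0435).

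Of 28 tested genes of histone message processing and decay, 6 were higher and 6 lower, with a median log2 change of 0.02. Over all tested genes 25.7% rose and 26.5% fell, so these shares were near the background. LSM11, of the particle that cuts histone messages, fell from 8.43 to 6.07 CPM (log2 change -0.42, limma adjusted p = 0.000493), and ERI1, an exonuclease of the stem-loop, from 54.0 to 46.6 CPM. SYMPK, a scaffold of the cleavage complex, rose from 107 to 129 CPM, and UPF1, a helicase used in histone message decay, from 280 to 341 CPM. SRRT and SNRPB did not pass. Of 12 factors of poly(A) tails and ordinary message ends, 5 rose and none fell by limma, beside 25.7% and 26.5% of all tested genes, with a median of 0.08, all at log2 changes under that of SLBP. PAPOLG, a poly(A) polymerase, was the one that changed most, from 30.5 to 34.7 CPM (log2 change 0.18, limma adjusted p = 0.007).

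Of 19 tested regulators of histone gene transcription, 10 rose and 3 fell, beside 25.7% and 26.5% of all tested genes, with a median log2 change of 0.10. The acetyltransferases EP300 and CREBBP rose from 83.5 to 110 CPM and from 63.8 to 82.4 CPM (limma adjusted p = 1.26e-10 and 4.01e-09). FOXK1 rose from 24.7 to 31.1 CPM. GAPDH, a glycolytic enzyme that is also part of an OCT1 coactivator complex on the H2B promoter, fell to 0.794 times the control.

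Of 37 tested histone chaperones, 16 rose and 4 fell, beside the same 25.7% and 26.5% of all tested genes, with a median log2 change of 0.06. ATRX, which with DAXX deposits the product of H3F3B in repeats, rose from 102 to 161 CPM (log2 change 0.66, limma adjusted p = 1.92e-18), and RBBP4 from 205 to 287 CPM (0.48, limma adjusted p = 1.04e-15). UBN2, of the HIRA complex, rose from 35.2 to 46.2 CPM and SUPT16H, a subunit of FACT, from 361 to 444 CPM. NPM1 did not pass, and SET rose by 0.16.

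Genes of DNA replication and S phase, the phase in which replication-dependent histone genes are transcribed, numbered 40 tested, of which 14 rose and 9 fell, with a median log2 change of 0.01. These shares lay near the 25.7% and 26.5% of all tested genes. The helicase subunit MCM3 rose to 1.23 times the control, and UHRF1 and GINS1 rose by 0.26 each on the log2 scale. MCM7 rose by 0.09 and MCM4 did not pass (0.01). The list includes SLBP. The share of cells in S phase was not measured.

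As a view of RNA made without a poly(A) tail, a list of 4 RNAs was chosen after values had been seen. RNU6-2 rose from 13.7 to 17.0 CPM (limma adjusted p = 0.00153), TERC did not pass (adjusted p = 0.126), and RMRP (1.12 and 0.874 CPM) and RPPH1 (0.491 and 0.471 CPM) were under 1 CPM on average. The sum of the 4 was 15.8 to 18.0 CPM in the controls and 19.8 to 20.5 CPM after knockdown, and its part in the rise of the replication-dependent genes was not tested. All 10 hepatocyte markers were present, at a summed 43856 to 44797 CPM in the controls and 40996 to 41362 CPM after knockdown, with 2 higher and 7 lower. Of 8 fibroblast markers 5 were in the table, summing to 174 to 183 and 319 to 327 CPM, most of it COL1A2. Among them 3 rose and 1, PDGFRB, fell to 0.722 times. Of 8 immune cell markers 5 were in the table, summing to 262 to 287 and 630 to 708 CPM, nearly all of it LYZ, which rose. CD14 fell to 0.485 times, PTPRC stood at 1.13 and 1.59 CPM without passing, CD68 did not pass, and CD3D was under 1 CPM. Of 6 endothelial markers 2 were in the table, both under 1 CPM. The part of these markers in the histone results was not tested.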

How the data were processed

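RNA for 3 control and 3 SETD5 knockdown libraries was selected with poly-T beads and made into stranded libraries, per the labels' protocols. The submitters' processing notes name STAR 2.5.1, R 3.3.0 and the builds hg19 and mm10 without a role, and how reads were counted, with or without strand, and scaled is not given in the sources used here. A single table of log2 values was deposited by the authors. Values of 2 to that power minus 1 fell on whole multiples of a fixed step (100% within 0.01), so they are log2(CPM + 1) of 14038447 to 17095417 reads a library, and 3 reads are 0.176 to 0.214 CPM.

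Genes averaging 1 CPM or more over the 6 libraries were tested with limma 3.58.1 in R 4.3.3 (trend, two-sided, group only). The alternatives were a pseudocount of 0.1, no filter or a mean of 5 CPM, median centring, quantile normalization, no trend, the replicate block, each library left out and, chosen after seeing the data, limma-voom on the recovered reads. Whether replicate numbers pair the libraries is not known, and the main fit did not use them. No libraries of a group differed by less than sampling noise: the chi-square statistic per gene was 1.25 to 2.1 within groups and 19.7 to 24.1 between them. Simulated data of the 12865 genes held 50 changed genes of each size. There limma found 68% of the 1.2-fold, 82% of the 1.5-fold, 98% of the 2-fold and 100% of the 4-fold changes. It called 8 of 12665 unchanged genes. The simulated spread between libraries was set by hand, and far fewer genes changed than the 6706 called in the data. These shares therefore need not hold for the data.

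Members follow the symbol rule. Values for each library are given for members with an absolute log2 change of at least 0.3 that passed, for the most abundant of each class and for the factors; from other lists, up to 4 changed members and 2 abundant ones are named. The members and lists were chosen with earlier results of these data known. Stem-loops were sought in GENCODE 29 transcripts and promoter words in RefSeq windows of GRCh38.p14, which is not the build the notes name.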

Additional observations from a re-analysis of the deposited data

How the results depend on the processing

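The 17 replication-dependent genes called higher became 8 at a mean of at least 5 CPM, where only 9 are tested, 21 with no filter and 17 by voom, with 15 to 17 when 1 library was left out; none was called lower in any alternative. Their median log2 change of 0.67 was 0.41 with no filter, 0.78 at 5 CPM, 0.73 by voom, which uses a smaller offset for low genes, and 0.62 to 0.67 with 1 library left out, lowest without control replicate 2. The 4 variants called lower were 2 without the mean-variance trend and 3 to 4 with 1 library left out; the 3 called higher were 3 to 4. The median of the variants, 0.02, was -0.072 at 5 CPM, where H3F3C drops out, 0.0298 under median centring and 0.0299 under quantile normalization, and -0.0101 (without control replicate 2) to 0.0266 with 1 library left out, so its sign carries no weight. Of 515 alternative fits of 38 members, 492 kept the call, 16 lost it, 7 gained it and none changed direction. In all fits that tested the gene, 15 of the 17 replication-dependent calls and 5 of the 7 variant calls held. Some of these genes were not in the fit at a mean of 5 CPM. Where a call was lost or gained the cause was not tested.

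Same-numbered control and knockdown libraries deviated together with correlations of -0.016, 0.089 and 0.065, beside -0.099 to 0.042 for libraries of unlike numbers. All were small, and they do not settle whether the numbers pair the libraries. With the replicate block, 17 replication-dependent genes were higher and 0 lower, with a median of 0.67, 3 variants were higher and 4 lower, with a median of 0.02, SETD5 changed by -0.59, and 6898 of all genes changed in place of 6706. The count models edgeR and DESeq2 were also fitted on the recovered reads and then left out, and no values of theirs are given here. Under DESeq2 the calls of HIST1H3E, HIST1H2BO and H1FX-AS1 ended. The voom fit on the recovered reads stands in place of both models. Depth limits the 13 genes of 1 to 27 reads a library.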
